A study of Mus musculus with 6 samples.

Results

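Guanylate-binding proteins (GBPs) and immunity-related GTPases (IRGs) are 2 families of large, interferon-inducible GTPases. The 10 genes described here are Gbp2, Gbp3, Gbp5, Gbp6, Gbp7 and Gbp9 of the first family and Iigp1, Irgm1, Irgm2 and Igtp of the second. They were taken by name from the 25683 genes of an RNA-seq table of 6 libraries, and all 10 were present and passed the filter on low counts, which left 12660 genes for testing. The 3 knock-out and 3 wild-type libraries were made from cultured cells of mouse aorta, labelled as a primary vascular smooth muscle line. Of these, KO1, KO2 and KO3 carry the genotype Nt5e Knock-out, and the others, WT4, WT5 and WT6, the genotype Nt5e-WT. Nt5e encodes CD73, a cell-surface enzyme that makes adenosine from AMP. Both genotypes had been moved from 10% to 0.5% fetal bovine serum for 48 h to induce differentiation, and the labels name no interferon treatment. The labels do not say how the deletion was made or how many animals gave cells.

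Resting cells outside the immune system make little of these GTPases. Interferon-gamma binds a receptor built from Ifngr1 and Ifngr2, the kinases Jak1 and Jak2 pass the signal on, and it ends at gamma-activated sites in promoters. Irf1 and complexes that hold Stat2 and Irf9 bind a second kind of element, the interferon-stimulated response element. GBPs coat bacteria and the vacuoles of intracellular parasites and help to open them, which feeds the inflammasome. IRGs with a regular GTP-binding loop, such as Iigp1, act on the vacuole membrane, while the regulatory IRGs Irgm1, Irgm2 and Igtp (also called Irgm3) sit on the cell's own membranes and hold the others inactive there.

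Promoter sequence is shown first because the 7 members with a promoter entry share an element whose letters were not used to choose the genes. The families are known as interferon-inducible and the element as one of the interferon response, so the choice of genes and that of the element were not independent. RefSeq promoter windows of GRCm38.p6, running from 250 bases before to 50 bases after each transcription start, were at hand for 7 of the 10 genes, namely Gbp2, Gbp3, Gbp5, Gbp7, Irgm1, Irgm2 and Igtp. Gbp6, Gbp9 and Iigp1 had no entry. The core of the interferon-stimulated response element was searched as GAAANNGAAA on both strands (TTTCNNTTTC where the element runs against the gene), and it was found in 7 of the 7 genes, against 3.99% of 27025 genes with a window. The stretches of 30 bases printed next are read 5′ to 3′ on the strand of the gene, with the match in capitals.
Gbp2, chr3:142620594-142620623, plus strand: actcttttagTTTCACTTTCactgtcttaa
Gbp3, chr3:142559989-142560018, plus strand: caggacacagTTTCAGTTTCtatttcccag
Gbp5, chr3:142496759-142496788, plus strand: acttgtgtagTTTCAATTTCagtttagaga
Gbp7, chr3:142530273-142530302, plus strand: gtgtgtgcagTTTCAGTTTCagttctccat
Irgm1, chr11:48871425-48871454, minus strand: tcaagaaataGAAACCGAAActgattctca
Irgm2, chr11:58214903-58214932, plus strand: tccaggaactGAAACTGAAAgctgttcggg
Igtp, chr11:58199512-58199541, plus strand: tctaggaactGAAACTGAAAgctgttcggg

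On the gene's strand the 4 GBP promoters carry the element in the TTTC direction and the 3 IRG promoters in the GAAA direction. Irgm1 and Gbp3 each hold another, overlapping match. The match nearest to the start lay 24 bases upstream in Irgm1, 34 in Igtp, 39 in Gbp3, 53 in Gbp7, 59 in Gbp2 and 64 in Irgm2, while that of Gbp5 lay 165 bases upstream. The full run GAAACTGAAA, on either strand and singled out after the matches were seen, was in Gbp3, Gbp7, Irgm2 and Igtp, 4 of the 7 genes, against 0.263% of all genes with a window. The core of the gamma-activated site, searched as TTCNNNGAA (which reads the same on both strands), was in Gbp5, Gbp7, Irgm2 and Igtp, again 4 of 7, against 9.55% of all genes. In Irgm2 and Igtp it ends just before the other element, with 2 bases between them. The 4 GBP promoters lie in 1 gene cluster, and Irgm2 and Igtp are neighbours with similar promoters, so these are not independent finds. A match describes letters in the window and does not show that a factor binds there.

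**Figure D1:**
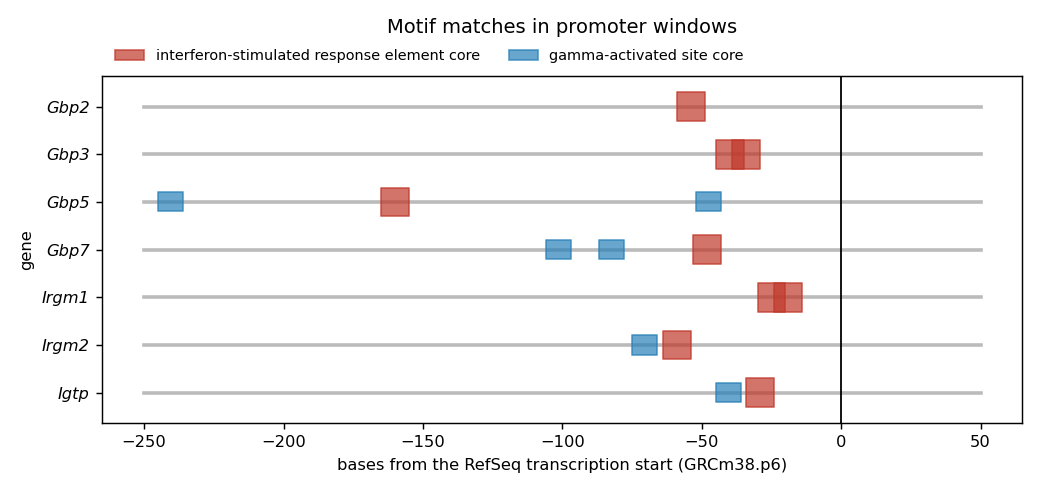
Motif matches in the promoter windows of the 7 genes with a RefSeq entry. The horizontal axis is the distance in bases from the transcription start, grey lines are the windows, red boxes mark GAAANNGAAA (either strand) and blue boxes TTCNNNGAA. Red boxes lie within 64 bases of the start in 6 genes and 165 bases upstream in Gbp5, and 4 genes also have blue boxes.

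The genes lie on 4 chromosomes (GRCm38, gene spans). Gbp5 (chromosome 3, 142493978 to 142522344), Gbp7 (142530342 to 142550149), Gbp3 (142560026 to 142573209) and Gbp2 (142620602 to 142638008) follow each other on the plus strand of chromosome 3. Gbp9 (105077630 to 105139539) and Gbp6 (105270702 to 105293698) are on the minus strand of chromosome 5. Irgm1 (48861968 to 48871683, minus strand) is on chromosome 11, as are Igtp (58199556 to 58207591) and Irgm2 (58199618 to 58222782), both on the plus strand with overlapping spans. Iigp1 (60376027 to 60392634, plus strand) is on chromosome 18.

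The libraries held 19919095 to 23669252 exon reads. Nt5e had 486 to 688 exon reads in the wild-type libraries and 22 in KO1, 1 in KO2 and 2 in KO3. Libraries of a genotype were unequally alike, as the biological coefficient of variation over all tested genes was 3.66% for KO2 with KO3 and 3.49% for WT4 with WT6, against 44.1% for KO1 with KO2, 44.6% for KO1 with KO3 and 14.95% and 15.7% for WT5 with WT4 and WT6. Each title is built from a stem, a numbered p, a digit, an S number and an ending that all titles share. The labels explain none of these. The S number differs in every library, is lower in the wild type than in the knock-out, and was not used. KO1 and KO2 share a stem and WT5 and WT6 share another, while KO3 and WT4 each have their own, so both nearly identical pairs join different stems. The number after p is 11 in KO1, WT4 and WT5 and 12 in KO2, KO3 and WT6. The digit that follows, called the last title number here, is 1 in KO1 and WT5 and 2 in the others. Each knock-out library is therefore given by itself. No label says that the stems stand for different mice or dishes, and the p-values speak only of the spread among these 6, which may be technical. Of 10 smooth muscle markers, the wild-type libraries together held 4996 reads of Acta2, 4584 of Smtn, 2025 of Mylk and 1157 of Tagln, 97 to 368 of Lmod1, Cnn1 and Synpo2, but 7 of Myh11 and 2 each of Des and Myocd. Acta2, Tagln and Mylk are shared with other cells, while Myh11 and Myocd are the more specific markers. Msln, a mesothelial marker, had 53779 reads over the same libraries. In CPM (scaled reads, explained next) it stood at 773 to 808 in the wild type, where the mean of Acta2 was 74.05. The summed wild-type level was 178 to 229 CPM for the 10 smooth muscle markers and 3091 to 3241 CPM for 12 mesothelial and epithelial markers. These levels are not divided by exon length. Some smooth muscle markers were thus present, but below the mesothelial and epithelial ones in sum, so these markers meet the label in part at most.

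Levels are given as CPM, reads scaled to a common library size with TMM factors, for comparing a gene between libraries, and as the authors' RPKM, which also divides by exon length, for comparing genes. In the wild-type libraries Irgm1 was the most abundant of the 10 genes per exon length, at 26.0 to 31.0 RPKM, followed by Gbp2 at 12.7 to 14.2 RPKM. Irgm2 (7.33 to 8.21 RPKM) came next, its lowest library almost level with the highest of Igtp (5.74 to 7.33). Gbp6 (4.15 to 4.99) and Gbp7 (4.26 to 4.73) overlapped, as did Gbp3 (1.89 to 2.18) and Iigp1 (1.06 to 1.93). Gbp9 (0.298 to 0.460) and Gbp5 (0.289 to 0.310) were lowest and overlapped too. In KO1 the order was different, with Iigp1 at 9.08 RPKM and Gbp3 at 8.10 RPKM above Gbp6 at 5.60 and Gbp7 at 2.22.

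The main pattern was a split within the knock-out. KO1 lay above both KO2 and KO3 in all 10 genes (46.9% of all tested genes did so), and in 8 of them, all but Gbp6 and Irgm1, it stood more than 2-fold above the mean of KO2 and KO3 (11.4% of all tested genes). Against the wild type, KO1 lay above every library in 8 genes (41.0% of all tested genes), and KO2 and KO3 lay below every one in 7 (40.4%). Both held in 5 genes, Gbp2, Gbp3, Gbp5, Irgm2 and Igtp, a pattern met in 9.19% of all tested genes. The median log2 ratio of the 10 genes to the wild-type mean was 0.55 in KO1, -1.12 in KO2 and -1.24 in KO3, where the medians of all tested genes were -0.01, -0.00 and 0.00. One library against a nearly identical pair gives no test, so these are descriptions of libraries, not of a genotype. In bulk RNA, moreover, fewer cells of a type and less RNA per cell cannot be told apart. The coefficient of variation of the CPM over the knock-out libraries ran from 13.6% (Gbp6) to 143% (Gbp5), where the median tested gene had 16.4%, and over the wild-type libraries from 3.71% (Gbp5) to 29.1% (Iigp1), where that median was 6.45%.

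**Figure D2:**
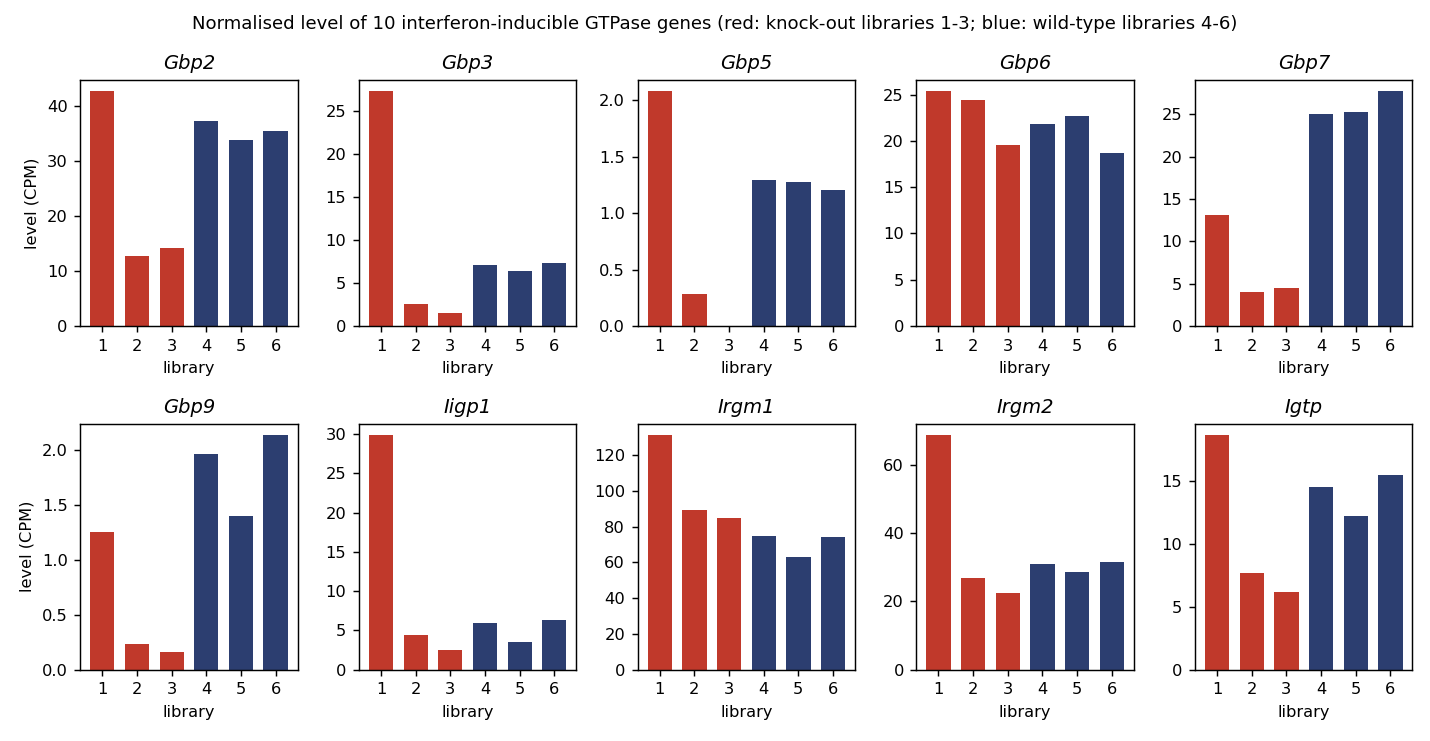
Normalised level in CPM (vertical axes, from 0) of each gene in the 6 libraries (horizontal axes), knock-out in red (1 to 3 are KO1 to KO3) and wild type in blue (4 to 6 are WT4 to WT6), 1 bar per library. KO1 is the highest bar in 8 panels, among them Gbp3 at 27.2 and Iigp1 at 29.8 CPM, whereas KO2 and KO3 lie below the blue bars for 7 genes.

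As a genotype comparison, 1 of the 10 genes passed and 9 did not. In the quasi-likelihood F test of edgeR over all 12660 genes, with p-values adjusted by Benjamini-Hochberg, Gbp7 was called lower in the knock-out and 0 members were called higher (1 in DESeq2, and 1 at an unadjusted p under 0.05 in edgeR, both Irgm1). That is 1 of 10 against 27.8% of all tested genes called in either direction, 13.7% called lower and 14.1% called higher, so the members' share is not above the background. The median log2 fold change of the 10 genes was -0.12, beside 0.02 for all tested genes. Knock-out and wild-type libraries did not overlap for Irgm1, higher in the knock-out (24.3% of all tested genes did so), and for Gbp7 and Gbp9, lower (25.5%). With the last title number as a covariate, Gbp7 was again the member called (-2.05, edgeR adjusted p = 0.0166), and Gbp3 turned from 0.60 to -0.54 without passing (0.683). With the number after p as a covariate, chosen after seeing the data, Gbp7 was again the member called (-1.80, edgeR adjusted p = 0.0323). Of the libraries whose last title number is 1 there is 1 per genotype, which gives no test within them.

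Among the GBPs, Gbp7, known from infection models as a defence factor that works with autophagy proteins, was low in all knock-out libraries. It stood at 13.1, 4.05 and 4.47 CPM in KO1, KO2 and KO3 and at 25.0, 25.2 and 27.7 CPM in WT4, WT5 and WT6. KO1 was thus at 50.5% of the wild-type mean and KO2 and KO3 at 15.6% and 17.2%. The wild-type level was 26.0 ± 1.49 CPM and the knock-out level 7.21 ± 5.12 CPM (mean ± SD, n = 3 each). On the log2 scale the fold change was -1.84 with an SE of 0.48 (edgeR adjusted p = 0.0358). The call ended without KO2 (edgeR adjusted p = 0.0920), KO3 (0.101), WT4 (0.106), WT5 (0.0978) or WT6 (0.110), and when KO2 with KO3 and WT4 with WT6 were each counted as 1 sample (0.258), the log2 fold change staying between -1.87 and -1.56. Without KO1 it was -2.62 (edgeR adjusted p = 5.14e-06), in a fit on the nearly identical KO2 and KO3 that called 66.2% of all tested genes.

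Gbp9 lay below the wild type in the same way, but on few reads: 29, 5 and 3 in KO1, KO2 and KO3 and 44, 34 and 46 in the wild type. In CPM these are 1.26, 0.236 and 0.160 against 1.96, 1.40 and 2.13. The groups did not overlap, though KO1 came close to WT5, and the log2 fold change, -1.70 ± 0.77 (SE, n = 3 each), did not pass (edgeR adjusted p = 0.150). Summed over KO2 and KO3, the 8 reads against 124 in the wild type put Gbp9 lower by 9.08-fold, with an exact 95% interval of 4.47 to 21.5 that covers counting error only.

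Gbp2, a prenylated GBP that gathers on pathogen vacuoles, had the most exon reads of the GBPs. It stood at 42.7, 12.8 and 14.3 CPM in KO1, KO2 and KO3 and at 37.3, 33.9 and 35.4 CPM in the wild type. KO1 was a little above the wild-type range and KO2 and KO3 at 36.1% and 40.1% of the wild-type mean. The genotypes overlapped, and the log2 fold change was -0.61 ± 0.48 (SE, n = 3 each; edgeR adjusted p = 0.371).

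Gbp3 showed the widest split of the well-measured GBPs. Its levels were 27.2, 2.59 and 1.54 CPM in KO1, KO2 and KO3 and 7.09, 6.37 and 7.27 CPM in the wild type. KO1 stood 3.94-fold above the wild-type mean, KO2 and KO3 stood at 37.5% and 22.3% of it, and KO1 was 13.2-fold above the mean of the other knock-out libraries. The fitted change, 0.60 ± 1.04 log2 (SE, n = 3 each; edgeR adjusted p = 0.691), therefore describes none of the 3 libraries.

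Gbp5, which in macrophages promotes assembly of the NLRP3 inflammasome, was near the limit of detection. It had 48, 6 and 0 reads in KO1, KO2 and KO3 and 29, 31 and 26 in the wild type. KO1 was 1.65-fold above the wild-type mean, and the 0 reads of KO3, taken as 3 reads, put it at least 7.88-fold below. With Gbp5 at that bound the median of the 10 genes in KO3 was again -1.24. It could not move, because Gbp5 stayed the lowest of the 10. Over KO2 and KO3 together, 6 reads against 86 in the wild type gave a level lower by 8.39-fold, with an exact 95% counting interval of 3.70 to 23.5. The genotype difference did not pass (-0.65 ± 1.18 log2, SE; edgeR adjusted p = 0.705).

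Gbp6 was the 1 GBP without the split. Its levels of 25.4, 24.5 and 19.5 CPM in KO1, KO2 and KO3 overlapped those of 21.9, 22.7 and 18.7 CPM in the wild type, and KO1 was 1.15-fold above the mean of KO2 and KO3. The log2 fold change was 0.13 ± 0.14 (SE, n = 3 each; edgeR adjusted p = 0.505). It was also the gene whose reads were least its own, as 20.7% of its exon reads were unique, between 18.6% and 23.7% by library, while the other 9 genes had 95.6% to 100%. Its unique reads alone, 111, 120 and 87 against 106, 106 and 75, differed by 0.27 log2 and did not pass (edgeR adjusted p = 0.347). The deposited total for Gbp6 may thus hold reads of related genes, and its even level is uncertain to that extent.

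Among the IRGs, the regulatory gene Irgm1 lay above every wild-type library in every knock-out library. It stood at 131, 89.3 and 84.9 CPM in KO1, KO2 and KO3 and at 74.5, 63.3 and 74.2 CPM in the wild type. KO1 was 1.85-fold and KO2 and KO3 were 1.26-fold and 1.20-fold above the wild-type mean of 70.7 ± 6.42 CPM (SD, n = 3). The log2 fold change, 0.53 ± 0.19 (SE), did not pass (edgeR adjusted p = 0.0854). It passed in DESeq2 (0.52, adjusted p = 0.0407) and without KO1 (0.30, edgeR adjusted p = 0.0167). The fit without KO1 rests on the nearly identical KO2 and KO3 and called 66.2% of all tested genes.

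Irgm2 and Igtp are the other regulatory IRGs. Irgm2 stood at 68.6, 26.9 and 22.4 CPM in KO1, KO2 and KO3 and at 30.8, 28.6 and 31.6 CPM in the wild type, so KO1 was 2.26-fold above the wild-type mean and KO2 and KO3 were at 88.8% and 73.9% of it. Igtp stood at 18.7, 7.73 and 6.22 CPM in KO1, KO2 and KO3 and at 14.6, 12.3 and 15.5 CPM in the wild type, with KO1 1.32-fold above the mean and KO2 and KO3 at 54.8% and 44.1%. In both genes KO1 lay above and KO2 and KO3 below all wild-type values. Neither passed as a genotype difference, the log2 fold changes being 0.38 ± 0.43 for Irgm2 (SE, n = 3 each; edgeR adjusted p = 0.540) and -0.37 ± 0.43 for Igtp (edgeR adjusted p = 0.540). The genes overlap on the same strand, and 98.8% and 95.6% of their reads were unique.

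Iigp1, also known as Irga6, is the effector IRG of the list and binds the vacuole membrane of Toxoplasma. Its levels were 29.8, 4.43 and 2.55 CPM in KO1, KO2 and KO3 and 5.93, 3.49 and 6.30 CPM in the wild type. KO1 was 5.69-fold above the wild-type mean, the largest such ratio of the 10 genes, while KO2 lay inside the wild-type range and KO3 below it. The log2 fold change was 1.23 ± 0.93 (SE, n = 3 each; edgeR adjusted p = 0.356). The log2 difference of KO1 from KO2 and KO3 was 3.11 for Iigp1, and its median over the 351 tested genes of chromosome 18 was -0.50. On chromosomes 3, 5 and 11, which hold the other members, that median was 0.07, 0.34 and 0.04, beside 0.01 for all tested genes. A part of the chromosome in the levels was not tested.

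**Figure D3:**
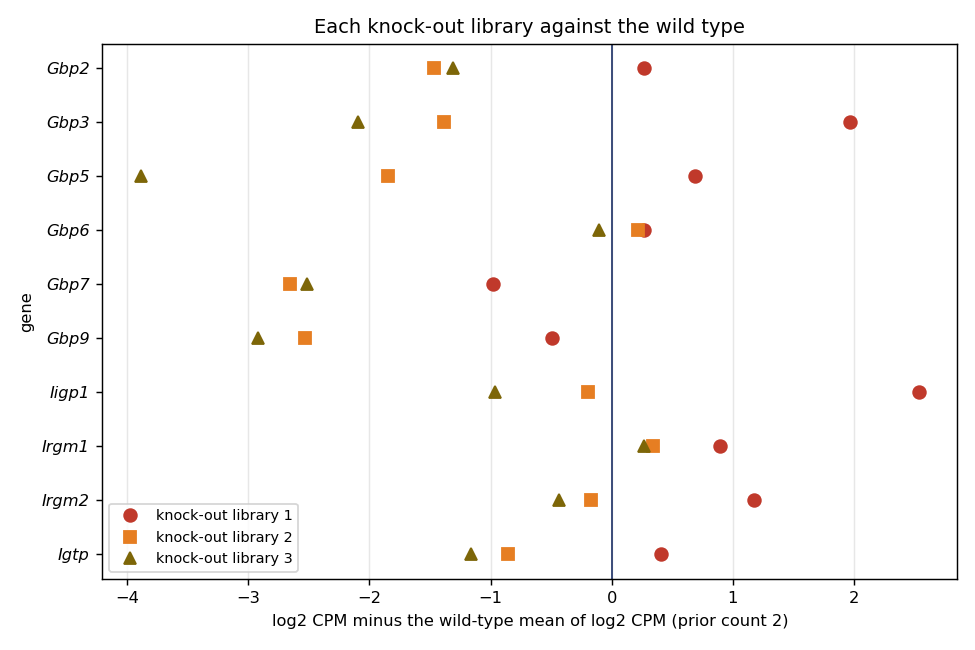
Log2 ratio of each knock-out library to the wild-type mean (horizontal axis, log2 CPM with a prior count of 2, 0 is the wild type) for the 10 genes. Circles are KO1, squares KO2 and triangles KO3. KO1 is the rightmost point in every row, from -0.98 for Gbp7 to 2.53 for Iigp1, and the point of Gbp5 in KO3, which had 0 reads, depends on the prior count.

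Leaving KO1 out changed the calls and some directions. On KO2 and KO3 against the wild type, 8 of the 10 genes were called, 7 lower and 1 higher (edgeR adjusted p under 0.05). In that comparison 66.2% of all 12817 tested genes were called, 33.7% lower and 32.6% higher, and the pair KO2 and KO3 is nearly identical. The lower genes were Gbp2 (-1.40), Gbp3 (-1.74), Gbp5 (-3.04), Gbp7 (-2.62), Gbp9 (-3.17), Igtp (-1.02) and Irgm2 (-0.30), as log2 fold changes, and Irgm1 was higher. Gbp6 and Iigp1 did not pass (0.05 and -0.58, edgeR adjusted p = 0.735 and 0.175). The direction of Gbp3, Irgm2 and Iigp1 was opposite to that with all 6 libraries. Thus 5 of the 6 GBPs were lower in this pair, while of the IRGs 2 were lower and 1 higher.

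**Figure D4:**
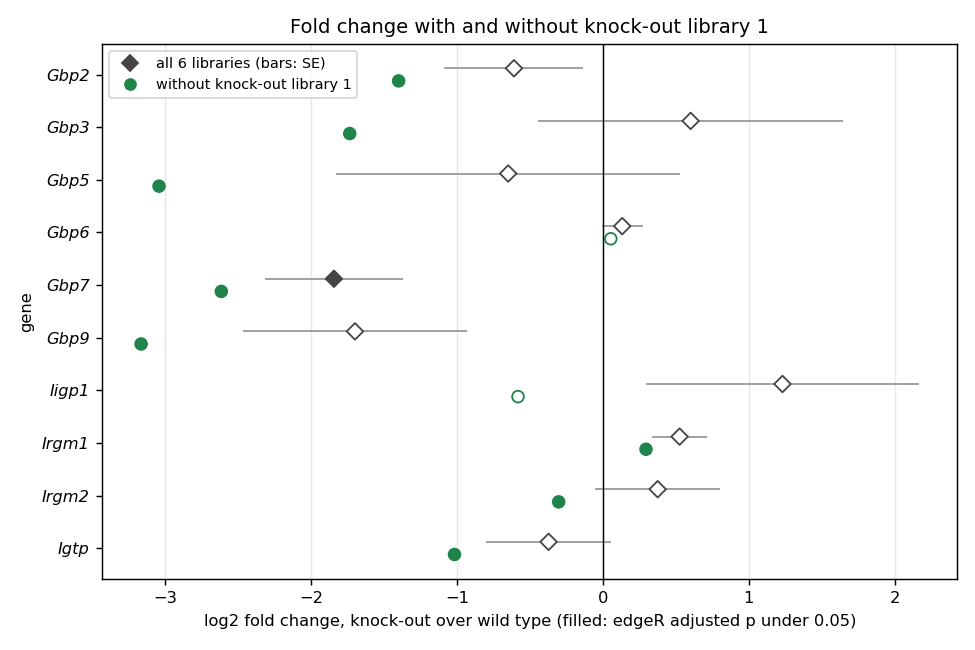
Log2 fold change of knock-out over wild type (horizontal axis) for the 10 genes, from all 6 libraries (diamonds, bars are the SE) and without KO1 (circles). Filled symbols passed an edgeR adjusted p of 0.05: Gbp7 with all libraries, and 8 genes without KO1.

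Exon junction reads, a subset of the exon reads, made up 53.2% of the exon reads of Gbp2 and 57.7% of those of Gbp3, but 3.29% for Iigp1 and 4.18% for Irgm2. Junction reads of Gbp3 numbered 358, 32 and 18 in KO1, KO2 and KO3 and 104, 91 and 80 in the wild type. Those of Gbp7 numbered 69, 23 and 28 against 136, 159 and 143. In both genes they were high and low in the same libraries as the exon totals. Intron reads were few, 529 for Irgm1 and 12 to 186 for each of the other genes over all libraries, and did not all follow the exon reads. Those of Gbp3 numbered 11, 1 and 1 in KO1, KO2 and KO3 and 9, 10 and 12 in the wild type, with KO1 inside the wild-type range. Those of Irgm1 numbered 122, 80 and 60 against 87, 76 and 104, so KO2 and KO3 were not above the wild type. Those of Iigp1 numbered 30, 4 and 4 against 5, 3 and 2, with KO1 above the wild type as in the exon reads.

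Relatives of the members, taken from a list of GBP, IRG and other large GTPase genes, were next compared. Of 12 tested relatives 0 were called by edgeR in either direction (2 had an unadjusted p under 0.05 and were called lower by DESeq2, Tgtp1 and Tgtp2), against 13.7% of all tested genes called lower and 14.1% higher. Among them 8 had KO1 more than 2-fold above KO2 and KO3 (11.4% of all tested genes). Of these 8, Tgtp1, Tgtp2, 9930111J21Rik1, Gvin1 and Gm4070 had mostly reads that were not unique, so the 8 are not separate counts. Over the 12 relatives the median log2 ratio to the wild-type mean was 0.37 for KO1, -0.72 for KO2 and -0.75 for KO3. Tgtp1 and Tgtp2, a pair of almost identical IRGs, lay below every wild-type library in all knock-out libraries, as Gbp7 did. Tgtp1 stood at 10.95, 1.60 and 1.70 CPM against 31.9, 21.3 and 24.8 CPM, and its log2 fold change, -2.44 ± 0.79 (SE, n = 3 each), had an edgeR adjusted p of 0.0677. Tgtp2 stood at 20.9, 10.1 and 8.94 CPM against 23.1, 26.4 and 26.4 CPM (-0.92 ± 0.34, edgeR adjusted p = 0.0909). Of their reads 38.1% and 42.9% were unique. On unique reads Tgtp1 was called lower (-2.54, edgeR adjusted p = 0.0454), as it was with the number after p as covariate (0.0411), and with the last title number as covariate both were (0.0346 and 0.0308). Without KO1, 7 of 13 tested relatives were called lower and 2 higher, Irgq and Gbp11, where 33.7% of all tested genes were called lower and 32.6% higher.

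Gvin1, a very large interferon-inducible GTPase, and Gm4070, listed beside it, followed the split, though 5.84% and 6.75% of their reads were unique and the share of each is uncertain. Gvin1 stood at 227, 27.5 and 11.7 CPM in KO1, KO2 and KO3 and 75.8, 47.2 and 72.9 CPM in the wild type. Gm4070 stood at 131, 5.66 and 10.2 CPM against 39.1, 15.9 and 38.6 CPM. Gm12185 did likewise, at 5.32, 0.848 and 0.692 CPM against 2.99, 2.26 and 2.32 CPM. It had 154 knock-out and 172 wild-type exon reads beside 4071 and 5397 intron reads. 9930111J21Rik1 stood at 51.4, 21.8 and 20.9 CPM against 45.7, 48.6 and 55.8 CPM, and 9930111J21Rik2 at 236, 180 and 163 CPM against 178, 153 and 183 CPM. Of their reads 47.3% and 65.4% were unique. Gm5431 had 46 knock-out and 35 wild-type reads.

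The 2 listed genes of chromosome 18 were seen mostly in KO1. Gm4951 had 79 of its 89 knock-out reads there and 3 reads over the wild type, and F830016B08Rik had 22 reads there and 0 in the other 5 libraries. Gbp4, Gbp8 and Gbp10 and the IRG gene Irgc1 had 3 reads or fewer each over all libraries, and Gbp11 had 2, 13 and 21 reads in KO1, KO2 and KO3 and 6 over the wild type, opposite in order to the members. Gbp2b had no reads. The membrane-fusing atlastins, more distant relatives, were not called: Atl2 stood at 116, 51.1 and 50.9 CPM against 60.2 ± 1.52 CPM (SD, n = 3), Atl1 at 12.3, 8.63 and 9.84 against 10.2 ± 0.533 CPM, and Atl3 at 549 ± 29.0 against 562 ± 3.67 CPM. Irgq, a distant IRG relative, had KO1 below and KO2 and KO3 above the wild type, at 31.2, 55.9 and 60.0 CPM against 48.7 ± 1.13 CPM.

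The pathway upstream of the GTPases was read from a list of 22 genes, of which 21 were tested. By edgeR (adjusted p under 0.05) 2 were called higher (9.52%) and 5 lower (23.8%), beside 14.1% and 13.7% of all tested genes. Ifng, the ligand, had no reads in any library, a count of 0 that allows up to 3 reads per library. The receptor chain Ifngr2 was lower in the knock-out, at 75.1 ± 8.49 CPM against 103 ± 3.96 CPM (SD, n = 3 each; -0.45 ± 0.10 log2, SE; edgeR adjusted p = 0.0246), while Ifngr1 stood at 129 ± 4.68 against 94.5 ± 33.2 CPM and did not pass (0.45 ± 0.27, 0.250). The kinase Jak2 was lower in all knock-out libraries, at 106, 82.0 and 82.5 CPM against 296, 326 and 292 CPM (-1.76 ± 0.13 log2, SE; edgeR adjusted p = 0.00102). Jak1 stood at 217, 361 and 369 CPM against 266 ± 16.9 CPM and did not pass (edgeR adjusted p = 0.415). In Jak1 it was KO1 that lay below the wild type.

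Stat2, a factor of the response to type I interferon, stood at 67.7, 50.4 and 48.3 CPM in KO1, KO2 and KO3 against 54.3 ± 2.59 CPM (SD, n = 3) in the wild type. KO1 lay above and KO2 and KO3 below the wild type, and the difference did not pass (0.03 ± 0.14 log2, SE; edgeR adjusted p = 0.892). Irf9, which binds DNA together with Stat2, stood at 75.6, 40.6 and 40.2 CPM against 27.9 ± 1.13 CPM, above the wild type in every knock-out library, with an edgeR adjusted p of 0.0511 (0.90 ± 0.27 log2, SE), which was 0.0351 with the number after p as covariate.

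Irf1, the factor best known for driving GBP promoters, did not follow the members: it stood at 52.1, 64.9 and 62.9 CPM in KO1, KO2 and KO3 and 62.7 ± 0.637 CPM in the wild type (-0.06 ± 0.10 log2, SE, n = 3 each; edgeR adjusted p = 0.653), with KO1 the lowest of all. Irf2, which competes with it, was slightly higher, at 42.5 ± 0.940 against 35.4 ± 0.597 CPM (0.27 ± 0.06 log2; edgeR adjusted p = 0.0274). Irf8, a factor of myeloid cells, was lower, with 4 knock-out and 88 wild-type reads in all (edgeR adjusted p = 0.0248). Of the feedback inhibitors, Socs3 was lower, at 24.5 ± 6.07 against 154 ± 13.4 CPM (-2.65 ± 0.19 log2, SE, n = 3 each; edgeR adjusted p = 0.00103), and Socs1 did not pass, at 2.46 ± 0.125 against 3.47 ± 1.32 CPM (0.294). Stat3 was lower (-0.69 ± 0.09, 0.00594) and Ptpn6, a phosphatase, was higher on 139 against 15 reads (3.25 ± 0.68, 0.0197). KO1 was at 0.817 to 1.49 times the mean of KO2 and KO3 for Ifngr2, Jak2, Stat3 and Socs3, so these genes did not show the members' split. The calls of Jak2, Stat3 and Socs3 held without any 1 library, those of Ifngr2, Irf2 and Irf8 ended without any library other than KO1, and that of Ptpn6 ended without KO3, WT4 or WT5.

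Other genes known to respond to interferon-gamma were read from a list of 39, of which 29 were tested. By edgeR 3 were called higher (10.3%) and 2 lower (6.90%), both shares under those of all tested genes (14.1% and 13.7%). In 10 of the 29, KO1 lay above and KO2 and KO3 below every wild-type library, against 9.19% of all tested genes, and the median of the log2 ratios to the wild-type mean was 0.39 for KO1, -0.28 for KO2 and -0.26 for KO3. The 3 called higher were Apol6 (2.41 ± 0.27 log2, SE; edgeR adjusted p = 0.00357), B2m, the light chain of MHC class I (1.0 ± 0.11; 0.00311), and Samhd1, a nucleotide hydrolase (0.70 ± 0.09; 0.00475). The 2 called lower were Serpina3g, a serine protease inhibitor (-2.25 ± 0.22; 0.00254), and Psmb9, an immunoproteasome subunit (-1.45 ± 0.26; 0.0129). For these 5 genes all knock-out libraries lay on the same side of the wild type, and the calls held without any 1 library, except that of Psmb9, which ended without KO3, WT4 or WT6. Icam1, an adhesion molecule chosen after its values were seen, stood at 225, 1.51 and 1.12 CPM in KO1, KO2 and KO3 and at 126, 99.9 and 115 CPM in the wild type. Usp18, a brake on the type I interferon receptor chosen in the same way, stood at 12.9, 0.896 and 0.319 CPM against 1.34, 0.987 and 0.880 CPM.

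Of 9 tested partners of GBPs in inflammasome signalling and cell death, 1 was called higher (11.1%) and 3 lower (33.3%), beside 14.1% and 13.7% of all tested genes. Gsdmd, the pore-forming gasdermin (-1.60 ± 0.23 log2, SE; edgeR adjusted p = 0.00690), Il18, a cytokine matured by caspase-1 (-1.59 ± 0.28; 0.0126), and Ripk3, a kinase of necroptosis (-5.32 ± 0.59; 0.00343), were lower. Aim2, a sensor of cytosolic DNA named after its values were seen, was higher on 61 reads against 6 (3.38 ± 0.88; 0.0372). Of 17 tested factors of autophagy conjugation and ubiquitin tagging that place GTPases on vacuoles, 11.8% were called in each direction, near the shares of all tested genes. Of these 2 were higher, Sqstm1 (0.79 ± 0.16; 0.0191) and Map1lc3b (0.45 ± 0.10; 0.0249), and 2 lower, Gabarapl1 (-0.96 ± 0.14; 0.00695) and Becn1 (-0.36 ± 0.08; 0.0245). Of the 6 enzymes that prenylate and trim CaaX proteins such as Gbp2 and Gbp5, Icmt was lower (-0.30 ± 0.07; 0.0251) and 5 did not pass. Of the tested genes of the autophagy and prenylation lists, 0 had KO1 more than 2-fold above KO2 and KO3. Of the 9 tested inflammasome partners 2 did, Casp4 and Zbp1 (22.2%, all tested genes 11.4%). Casp1 ran the other way, at 0.13, 8.6 and 9.4 CPM in KO1, KO2 and KO3. Its wild-type level was 1.2 ± 0.30 CPM (SD, n = 3). Casp1, Casp4 and Zbp1 were named after their values were seen. The calls of Gsdmd, Ripk3 and Gabarapl1 held without any 1 library, and those of Il18 (without KO2, WT4 or WT6), Aim2, Sqstm1, Map1lc3b, Becn1 and Icmt ended without at least 3 of the libraries. In edgeR with KO2 and KO3 summed, and WT4 and WT6 summed, 0 of 27 called genes named from these lists and the marker lists passed. Of the 27, 24 had an unadjusted p under 0.05. The called markers Cnn1, Pdgfra and Pi16, named further on, were not among the 27.

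**Figure D5:**
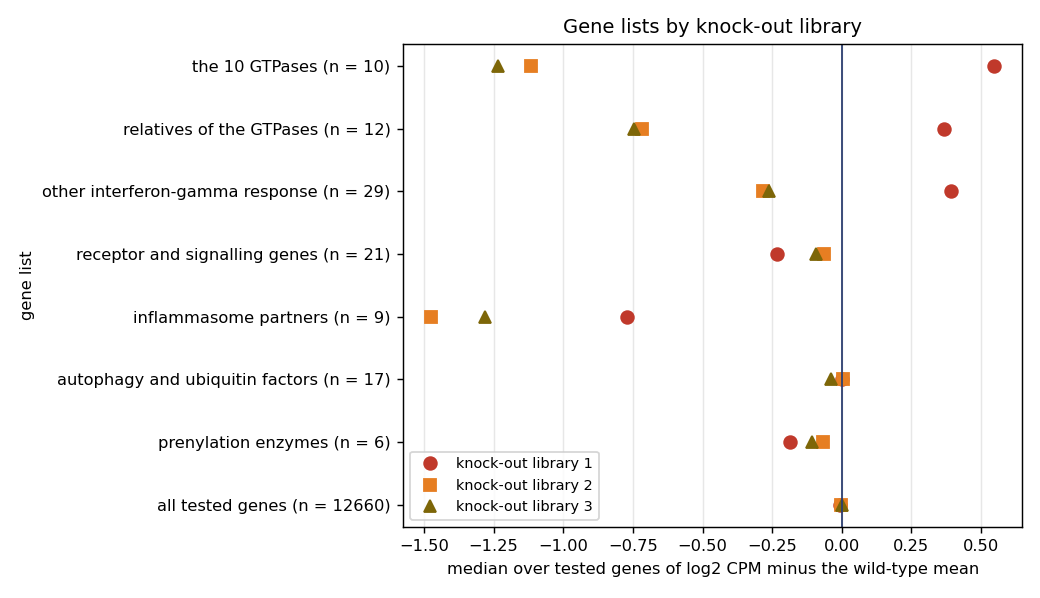
Median log2 ratio to the wild-type mean (horizontal axis) over the tested genes of each list, for KO1 (circles), KO2 (squares) and KO3 (triangles). The 10 GTPases (0.55, -1.12 and -1.24), their relatives and other interferon-gamma response genes have KO1 right of 0 and KO2 and KO3 left of it, the inflammasome partners lie left of 0 in all of them, and the medians of receptor signalling, autophagy and prenylation genes and of all tested genes lie between -0.23 and 0.00.

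Markers of other cells moved with the genotypes and with KO1, and their part in the GTPase levels was not tested. Of 15 leukocyte markers, 6 had 0 reads in all libraries, among them Ptprc, Adgre1, Itgam and Tyrobp, and 4 were tested. The summed level of that list was 60.6 to 70.5 CPM in the wild type and 22.1 to 25.6 CPM in the knock-out, led by Cd14 in the wild type and, in KO2 and KO3, by Lyz2. Of these, Cd14 was called lower (-2.45 ± 0.27 log2, SE; edgeR adjusted p = 0.00341) and Lyz2 higher (2.57 ± 0.50; 0.0156). Of 10 tested mesothelial and epithelial markers all 10 were called lower, and the summed level of the list was 3091 to 3241 CPM in the wild type and 204, 88.8 and 82.9 CPM in KO1, KO2 and KO3, led by Msln and Lrrn4. The summed level of 8 fibroblast markers, led by Dcn and Col1a2, was 5011 to 5246 CPM in the wild type and 5430, 9575 and 10370 CPM in KO1, KO2 and KO3. The markers of that list differed in KO2 and KO3. Col1a2 stood there at 3951 and 4439 CPM against a wild-type mean of 1391, and Col1a1 at 2090 and 2333 against 873.9. Pdgfra, Dpt, Lum and Pi16 also lay above every wild-type library. Dcn was level, at 2462 and 2502 against 2489 CPM, and Ly6a lay below every wild-type library. The summed level of 10 smooth muscle markers, led by Acta2 and Smtn, was 178 to 229 CPM in the wild type. It was within that range in KO1 and 733 and 711 CPM in KO2 and KO3. There Acta2 stood at 546 and 524.5 CPM against a wild-type mean of 74.05. Mylk lay inside the wild-type range and Cnn1 was lower (0.236 and 0.266 against 2.07 CPM). Of 7 tested, 1 was called higher and 1 lower by edgeR (all tested genes 14.1% and 13.7%). Without KO1, 6 of 8 were called higher and 1 lower, beside 32.6% and 33.7%. Endothelial markers, of which Kdr and Erg had the most reads, summed to at most 6.93 CPM in any library. Kdr, the 1 tested, was called higher (3.17 ± 0.59 log2, SE; edgeR adjusted p = 0.0139). Vwf and Erg, under the filter, had 7 and 11 knock-out and 44 and 46 wild-type reads, with 29 and 35 of the latter in WT5. The calls of Lyz2, Kdr and Msln ended without at least 2 of the libraries other than KO1, and that of Cd14 held without any 1 library.

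By the profile over the 6 libraries, the genes outside the list most like the members were Pcx, Klf5, Rilp, Ajm1 and Slc22a18. The measure was the root mean square difference between a gene's centred log2 CPM and the mean of the 10 members, taken over 6 libraries of which 4 form nearly identical pairs, and it ran from 0.116 for Pcx to 0.152 for Slc22a18. Pcx, the gene of pyruvate carboxylase, stood at 67.8, 20.5 and 18.5 CPM in KO1, KO2 and KO3 and 46.0, 43.4 and 44.9 CPM in the wild type. The members themselves lay at 0.195 (Igtp) to 0.880 (Gbp5) from their own mean. The 5 genes were picked for the smallest distance and the members were not, so these ranges cannot be compared.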

How the data were processed

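The deposited table holds whole-number read counts per gene and library, made by the authors (exon, unique exon, exon junction and intron reads), and an RPKM value, per the file headers. Its build is GRCm38, also called mm10, as the submitters' processing notes have it. How reads were aligned and counted, and whether strand was used, is not given in the sources used here. Genotypes came from the labels. edgeR 4.0.16 (R 4.3.3) was run on the total exon reads with filterByExpr at a minimum count of 10, TMM scaling, the quasi-likelihood F test on genotype alone, Benjamini-Hochberg adjustment and calls at an adjusted p under 0.05. The SE is the size of the log2 fold change over the root of F. The test was checked on simulated data with every library drawn independently, which do not hold the nearly identical pairs seen here. RPKM served only to order genes. The members, gene lists and tests were chosen with earlier results of these data known. Named genes were the members, their relatives with reads, 12 fixed pathway genes (1 is not reported here), up to 3 called rises and 3 called falls per list with a mean of at least 20 reads, and the 2 highest markers per cell type. Likeness was ranked among genes with a mean of at least 50 reads. Alternatives were DESeq2 1.42.0 and its size factors, total counts, other filters, unique reads, summed pairs, the last title number or, added after seeing the data, the number after p as covariate, and leaving out each library. Plots used matplotlib 3.10.9 in Python 3.11.15.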

Additional observations from a re-analysis of the deposited data

How the results depend on the processing

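Genotypes share no replicate number, so none was blocked, and the last title number and, chosen after seeing the data, the number after p were fitted as covariates instead. Of 148 log2 fold changes of the members under 15 alternatives, 132 kept their direction and side of the threshold, 6 lost a call (all Gbp7), 6 gained one and 4 reversed. Gbp3 reversed with the last title number as covariate (-0.54). When a library was left out, the values ran from -1.74 to 1.11 for Gbp3, -0.58 to 1.71 for Iigp1, -0.30 to 0.66 for Irgm2, -0.15 to 0.12 for Stat2 and -0.12 to 0.022 for Irf1, and each of these signs turned without KO1 (that of Stat2, near 0, also without WT6 and, at -0.058, with total counts). The members called, 1 in the test as reported, were 2 in DESeq2 (1 of them higher), 0 with nearly identical libraries summed, where 17 of 13041 genes passed in all, and 0 to 8 when a library was left out (0 to 1 higher, 0 to 7 lower). Genes called numbered 3524, against 8486 without KO1 and 1120 to 1671 without any other library. The sum and the omissions leave fewer samples, and beyond that the cause was not tested. DESeq2 gave no adjusted p for Gbp3, and Gbp5 and Gbp9 did not pass the filter of 50 reads in 3 libraries. With total counts 40.1% of called genes were higher in place of 50.7%. Depth limits Gbp5 and Gbp9, with 140 and 161 reads over all libraries.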
